A study of Arabidopsis thaliana with 24 samples.

Results

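In detached leaves kept in the dark, the transcript signal of 91 of 32627 measured genes (0.279%) fell 8-fold or more within 1 day. It did so in the wild type and in both delayed-senescence mutants. A gene belonged to this group if its deposited log2 value at 1 day was lower than at 0 days by 3 or more, an 8-fold fall, in each of the 6 pairs formed by a genotype and a replicate number. The members were therefore chosen by their change from 0 to 1 day, and their values at these times are given as a description, without a test. The tests below use only the 12 arrays of days 2 and 3, which the choice did not use.

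The arrays held total RNA from rosette leaves at position 3 or 4 of 21-d-old Arabidopsis grown in 16 h light and 8 h dark. The leaves were 12 d past emergence, and were floated on 3 mM MES buffer in the dark for 0, 1, 2 or 3 d after treatment (DAT), the 0 DAT leaves being the controls. The genotypes were Col, the wild type of accession Columbia; ein2/ore3 (ein2-44/ore3-1), an ethylene-insensitive mutant; and ahk3/ore12 (ore12-1), a gain-of-function mutant of the cytokinin receptor AHK3 with a constitutive cytokinin response. Each mutant was represented by 1 allele, all genotypes were detached and darkened alike, and 2 biological replicates per condition gave 24 arrays. No light-kept leaves of 1, 2 or 3 DAT were among these arrays, so that darkness, detachment and time cannot be told apart.

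Chloroplasts in leaf mesophyll carry out photosynthesis, and many nuclear genes for their proteins are transcribed in the light and are silenced when light is withdrawn. The chloroplast NADH dehydrogenase-like (NDH) complex passes electrons from ferredoxin back to plastoquinone. It joins photosystem I in a supercomplex and serves cyclic electron flow, which yields ATP without net NADPH. Its subunits are encoded partly in the plastid and partly in the nucleus, and the genes described here are nuclear. Dark-induced senescence, a faster form of leaf ageing, dismantles this machinery and is advanced by ethylene and delayed by cytokinin.

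The summed intensity was between 77974241 and 80117825 on 23 arrays and 72581116 on the remaining one, replicate 2 of ein2/ore3 after 2 d, whose values were lower as a whole. The replicates of a condition correlated across genes with Pearson's r between 0.965 and 0.995. The 4 leaf mesophyll markers RBCS1A, RCA, LHCB1.3 and GAPA1 had a log2 summed level between 16.15 and 17.87, whereas the root markers PLT1, WOX5 and EXPA7 together lay between 7.50 and 8.29. The mesophyll sum in Col moved from 17.79 to 17.84 at 0 DAT to 16.15 to 16.19 at 3 DAT, and at 3 DAT was 17.17 to 17.20 in ein2/ore3 and 17.06 to 17.19 in ahk3/ore12. The epidermal marker sum (4 genes) at 3 DAT was 13.36 to 14.08 in Col, 15.34 to 15.49 in ein2/ore3 and 14.65 to 14.67 in ahk3/ore12. At that time the phloem companion cell sum (2 genes) was 12.83 to 12.84, 14.32 to 14.46 and 13.87 to 13.94, and the sum for dividing cells (4 genes) 9.17 to 9.34, 10.64 to 10.97 and 9.45 to 9.52, in the same order. The guard cell sum (3 genes) was 12.19 to 12.22 in Col, 12.21 to 12.23 in ahk3/ore12 and 11.56 to 11.66 in ein2/ore3. The part of these shifts in the differences given below was not tested, and in bulk leaves fewer cells of a type and less RNA per cell cannot be told apart.

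Of the 91 members, 89 are protein-coding, 1 is a microRNA locus (MIR167d) and 1 is an RNA without a coding role (AT4G12917). They are spread over all 5 chromosomes, with 26, 14, 18, 17 and 16 members on chromosomes 1 to 5. Chromosome 1 held 28.6% of the members and 24.9% of all genes. A single pair of members lay side by side, the serine carboxypeptidase-like genes scpl10 (AT2G23000) and SCPL9 (AT2G23010). The members were measured by 4 or more probes in 70 cases and by 3 probes in 21.

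The mean change over the 6 pairs ranged from -6.19 to -3.25 on the log2 scale, with a median of -4.29, a 19.5-fold fall. The median member level in Col was 11.70 at 0 DAT, 6.97 at 1 DAT, 6.61 at 2 DAT and 6.89 at 3 DAT. In ein2/ore3 the corresponding medians were 11.73, 7.84, 7.05 and 7.01, and in ahk3/ore12 they were 11.83, 6.86, 7.13 and 7.16. The median of all genes stayed between 9.0 and 9.14. Thus the median of the members began above that of all genes and ended below it in every genotype. Single members departed from this, with a lowest level in Col of 8.61 at 0 DAT and a highest of 11.36 at 3 DAT.

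**Figure D1:**
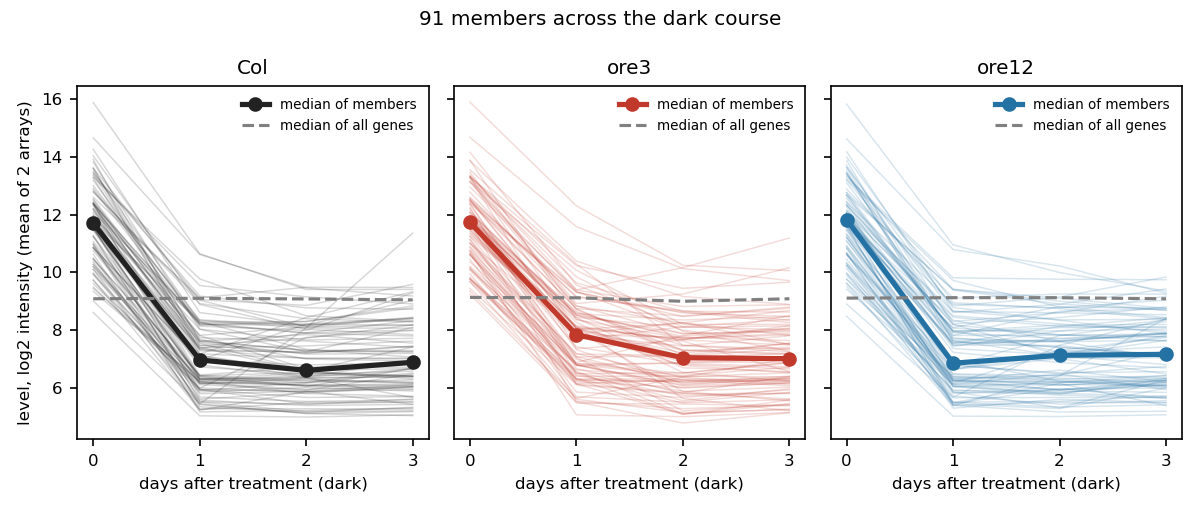
Level (log2 intensity, mean of 2 arrays) of each of the 91 members at 0 to 3 DAT in the 3 genotypes as thin lines, with the median of members (thick line) and of all genes (dashed). The median of the members drops from between 11.70 and 11.83 to between 6.86 and 7.84 by 1 DAT and remains near 7 afterwards.

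Many members reached the low end of the scale. At 1 DAT, 43 members in Col, 29 in ein2/ore3 and 46 in ahk3/ore12 lay in the lowest 25% of genes on both arrays of the genotype. No detection calls were used, so the sizes of such falls are lower bounds and their order is not firm. Across the threshold there was no gap. Just inside it were AT1G30250 (a highest of 6 changes of -3.0), ZKT (-3.04) and SAUR31 (AT4G00880, -3.04), and just outside were AT2G32500 (-2.99), AT5G17670 (-2.99) and GPX7 (-2.98).

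How far the rule was set by one genotype can be read from the losses in each. In both Col pairs 288 genes fell by 3 or more, in both ahk3/ore12 pairs 239, and in both ein2/ore3 pairs 109. The members were 31.6% of the Col losses, 38.1% of the ahk3/ore12 losses and 83.5% of the ein2/ore3 losses. A further 108 genes passed in the 4 pairs of Col and ahk3/ore12 and failed in at least 1 of ein2/ore3, whereas 5 passed in the 4 of Col and ein2/ore3 and failed in ahk3/ore12.

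Among the members themselves the fall at 1 DAT was also smallest in ein2/ore3. The median change was -4.65 in Col, -4.47 in ahk3/ore12 and -3.72 in ein2/ore3. Of the members, 76 fell less in ein2/ore3 than in either other genotype. The share of all genes with their smallest fall in ein2/ore3 was not computed. Over all genes the median change was 0.08 in Col, 0.06 in ahk3/ore12 and -0.004 in ein2/ore3. At 1 DAT, both ein2/ore3 arrays lay above both Col arrays for 63 members and below for 4, where 27.1% and 19.7% of all genes did so. For ahk3/ore12 the numbers were 31 and 5, against 19.2% and 12.3% of all genes. The median difference from Col at 1 DAT was 0.59 in ein2/ore3 (0.70 on slide 1 and 0.53 on slide 2) and 0.11 in ahk3/ore12 (0.13 and 0.08). These values come from the arrays that chose the members and are a description only.

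Of the gene lists examined, that of the NDH complex held the most members. Of 24 nuclear genes listed for its subunits, assembly and photosystem I linkers, 10 were members, a share of 41.7%. The median change of the 24 from 0 to 1 DAT was -4.03 in Col, -2.77 in ein2/ore3 and -3.65 in ahk3/ore12, against 0.08, 0.00 and 0.06 over all genes. In Col 23 of the 24 were below 0, where 13381 of all 32627 genes were. The 10 members among them were below 0 by the rule. The members were PnsB1, PnsB3 and PnsB5 of subcomplex B, PnsL2 and PnsL3 of the lumenal subcomplex, NdhM of subcomplex A, NdhT and NdhU at the ferredoxin-binding side, CRR3, which is needed for the complex to accumulate, and Lhca6, the antenna protein that links NDH to photosystem I.

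Lhca6 (AT1G19150) had log2 levels in Col of 13.84 and 13.97 before darkness and 7.20 and 7.37 after 1 d. In ein2/ore3 they were 13.97 and 13.80 at 0 DAT and 8.45 and 8.31 at 1 DAT, and in ahk3/ore12 13.87 and 13.88, then 7.61 and 7.82. At 3 DAT, the 6 arrays lay between 6.86 and 7.65. The ein2/ore3 arrays were the highest at 1 DAT, and by 3 DAT they lay on both sides of those of Col.

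PnsB1 (AT1G15980), a stromal subunit of subcomplex B, went from 13.78 and 13.46 to 7.43 and 6.93 at 1 DAT in Col. In ein2/ore3 it was 8.84 and 8.60 at 1 DAT, and in ahk3/ore12 7.58 and 7.29. The ahk3/ore12 arrays then read 7.90 and 8.04 at 2 DAT and 8.22 and 7.86 at 3 DAT. Those of Col lay between 6.98 and 7.10 on these days and those of ein2/ore3 between 6.88 and 7.42. The 4 late ahk3/ore12 arrays were above all 8 late arrays of the other genotypes. PnsB1 was higher in ahk3/ore12 than in Col by 0.97 ± 0.14 (SE; limma adjusted p 0.00108) over 2 and 3 DAT, and higher in ahk3/ore12 than in ein2/ore3, the difference ein2/ore3 minus ahk3/ore12 being -0.78 ± 0.14 (adjusted p 0.00475).

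PnsB3 (AT3G16250), of the same subcomplex, had 6.30 and 6.42 at 1 DAT in Col against 8.27 and 8.26 in ein2/ore3. Over 2 and 3 DAT it was higher in ein2/ore3 by 0.37 ± 0.11 (adjusted p 0.0297). That call was lost without Col 2 DAT replicate 1 or 2, Col 3 DAT replicate 1 or either ein2/ore3 3 DAT array, with an adjusted p of at most 0.109. The other 8 NDH members were called in no comparison of a mutant with Col.

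Over 2 and 3 DAT, 10 of the 24 list genes were higher in ein2/ore3 than in Col and 2 lower, where 15.1% and 13.9% of all genes were. In ahk3/ore12 11 were higher and 1 lower, against 17.1% and 11% of all genes. PnsB3 was the only member among the 10, and PnsB1 the only member among the 11. Of the rest, PnsB2 (AT1G64770) was higher by 2.31 ± 0.15 in ein2/ore3 (adjusted p 1.1e-05) and by 2.14 ± 0.15 in ahk3/ore12 (adjusted p 5.2e-05), and NdhO (AT1G74880) by 2.1 ± 0.17 and 2.25 ± 0.17. Lhca5, the other linker to photosystem I and no member, was lower in both, with differences of -1.31 ± 0.15 (adjusted p 1.93e-04) and -1.07 ± 0.15 (adjusted p 9.69e-04). NdhS (AT4G23890), the ferredoxin-binding subunit, changed at 1 DAT by -0.12 in Col, 0.09 in ein2/ore3 and -0.16 in ahk3/ore12. Since a gene that fell by less than 3 in ein2/ore3 could not be a member, the difference between members and other list genes was not tested.

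**Figure D2:**
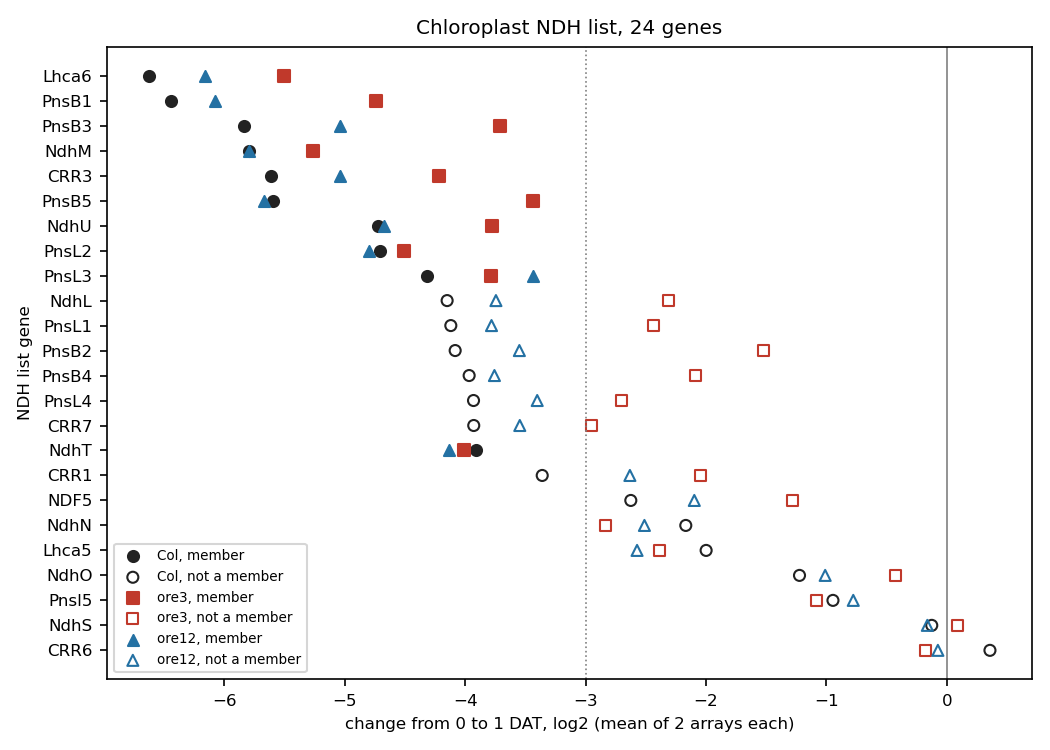
Change from 0 to 1 DAT on the log2 scale (horizontal axis, difference of 2-array means) for the 24 genes of the NDH list (vertical axis), with filled symbols for the 10 members and the limit of -3 dotted. PnsB2 shows -4.08 in Col, -1.52 in ein2/ore3 and -3.55 in ahk3/ore12, while NdhS stays near 0 in all 3.

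Other photosynthesis lists had 1 or 2 members each, where 0.279% of all genes were members. They were 2 of 20 genes of the light-harvesting antenna and PSBS (10%) and 1 of 17 of chlorophyll synthesis (5.88%). The others were 1 of 19 of carbon fixation (5.26%) and 1 of 6 beta carbonic anhydrases (16.7%). The median changes of these lists in Col at 1 DAT were -1.12, -1.68, -1.87 and -0.40. The antenna list was at 14.98 at 0 DAT, 13.93 at 1 DAT and 11.24 at 3 DAT in Col, a gradual course. Over 2 and 3 DAT 18 of its 20 genes were higher in ein2/ore3 than in Col and 1 lower, and 17 were higher in ahk3/ore12 and 1 lower, against 15.1% and 17.1% of all genes higher.

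NPQ4 (AT1G44575) encodes PsbS, which triggers the thermal dissipation of excess light in photosystem II. Its levels in Col were 14.63 and 14.69 at 0 DAT, 10.53 and 10.71 at 1 DAT, 9.50 and 9.43 at 2 DAT, then 9.11 and 9.25 at 3 DAT. In ein2/ore3 they were 11.68 and 11.49 at 1 DAT, 10.17 and 10.10 at 2 DAT and 9.96 and 9.47 at 3 DAT. All its late ein2/ore3 values but 1 exceeded the highest late Col value, and the difference of 0.60 ± 0.20 passed narrowly (adjusted p 0.0477). The call was lost with slide as a block (adjusted p 0.0507) and without any single Col or ein2/ore3 array of 2 or 3 DAT other than ein2/ore3 3 DAT replicate 2 (adjusted p 0.0718 to 0.154).

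CA1 (AT3G01500), the main chloroplast carbonic anhydrase, stood at 15.89 and 15.86 in Col at 0 DAT, 10.57 and 10.73 at 1 DAT, 9.39 and 9.43 at 2 DAT, then 9.39 and 9.44 at 3 DAT. In ein2/ore3 it was 12.43 and 12.18 at 1 DAT, 10.34 and 10.15 at 2 DAT and 10.11 and 10.01 at 3 DAT. The ein2/ore3 arrays were above those of Col at each dark time point, and over 2 and 3 DAT the difference was 0.74 ± 0.14 (adjusted p 0.00335). In ahk3/ore12 CA1 was at 9.69 and 10.31 at 2 DAT, above both Col arrays, and at 9.23 and 9.49 at 3 DAT, where it overlapped Col.

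PCB2 (AT5G18660), the divinyl reductase of chlorophyll synthesis, was higher in ein2/ore3 than in Col by 0.49 ± 0.11 (adjusted p 0.00692). RBCS1B (AT5G38430), a Rubisco small subunit gene, was higher in ahk3/ore12 than in Col by 0.53 ± 0.14 (adjusted p 0.0235) and lower in ein2/ore3 than in ahk3/ore12 by a difference of -0.83 ± 0.14 (adjusted p 0.00467). The first of these RBCS1B calls was lost without any 1 of the 8 Col and ahk3/ore12 arrays other than Col 3 DAT replicate 2 (adjusted p at most 0.0774). RBCS1B has close copies, and how far their transcripts share its probes is uncertain.

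LHCB4.3 (AT2G40100), a minor antenna protein of photosystem II, was the only member of this set called lower in a mutant than in Col. Its levels in Col were 7.33 and 6.61 at 1 DAT, 8.56 and 7.86 at 2 DAT, then 8.28 and 8.08 at 3 DAT. In ein2/ore3 they were 7.13 and 7.09 at 2 DAT and 7.30 and 6.85 at 3 DAT, and in ahk3/ore12 7.09 and 7.16, then 7.72 and 7.58. No late array of either mutant reached the lowest late Col array. LHCB4.3 was lower than in Col by a difference of -1.10 ± 0.16 in ein2/ore3 (adjusted p 9.02e-04) and -0.81 ± 0.16 in ahk3/ore12 (adjusted p 0.00632).

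Further members serve plastid metabolism and the upkeep of the photosynthetic apparatus. They include PSB28 (photosystem II assembly), YCF37 (photosystem I assembly), CCB3 (haem attachment to cytochrome b6) and PPT2 (phosphoenolpyruvate transport into plastids). Others are LrgB (AT1G32080, glycolate and glycerate transport in photorespiration), SPS2 (solanesyl diphosphate for plastoquinone) and FADA (a plastid fatty acid desaturase). The aldolase gene FBA7 was a member as well and is not counted among these. NEET, an iron-sulfur protein, had a mean change of -5.86 and LrgB of -5.25. PPT2 (AT3G01550) went in Col from 10.99 and 10.89 to 5.22 and 5.13 by 1 DAT, but in ein2/ore3 from 11.34 and 11.30 to 8.18 and 8.08. By 3 DAT it was at 5.27 and 5.34 in Col and 5.17 and 5.26 in ein2/ore3, so that the gap at 1 DAT was no longer there.

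The lists outside photosynthesis held at most 2 members each. None of 25 B-box factors, 17 clock genes, 25 alpha-expansins and 7 GASA genes was a member, nor was any of 8 dark-inducible genes, whose median change at 1 DAT was 2.03 in Col, 1.28 in ein2/ore3 and 1.82 in ahk3/ore12. Members were 2 of 79 auxin-induced SAUR genes (2.53%) and 1 of 33 xyloglucan endotransglucosylases (3.03%), XTH31, against 0.279% of all genes. Of 17 genes of photoreceptor signalling and photoprotection, 2 were members (11.8%). They were TT4 and AT3G44450, which the list places there while the annotation used here gives it no function. The median changes of the SAUR, XTH and photoprotection lists in Col at 1 DAT were -0.38, 0.69 and -1.79.

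The deepest mean fall was that of AT5G59130, at -6.19, a 72.9-fold fall. It went from 12.51 and 12.22 to 5.56 and 5.82 in Col, from 12.37 and 12.06 to 6.77 and 6.23 in ein2/ore3 and from 12.01 and 12.07 to 5.97 and 5.76 in ahk3/ore12. AT3G44450 fell by 6.11, THI2.2 (a thionin, a small antimicrobial peptide) by 6.10, Lhca6 by 6.10 and AT2G15020 by 5.97 on the log2 scale. PnsB1 (-5.75), TT4 (-5.63), NdhM (-5.62), XTH31 (-5.47) and AT5G38520 (-5.22) complete the 12 deepest with NEET and LrgB.

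TT4 (AT5G13930), chalcone synthase, the first enzyme of flavonoid synthesis, was at 11.22 and 11.35 in Col and 12.22 and 12.46 in ein2/ore3 at 0 DAT. At 1 DAT the ein2/ore3 arrays read 7.67 and 6.97, those of Col 5.51 and 5.65, and those of ahk3/ore12 5.22 and 5.69. At 2 and 3 DAT the 4 Col arrays lay between 5.39 and 5.43 and the ein2/ore3 arrays between 5.79 and 6.82. The late arrays of ein2/ore3 and Col did not overlap, with a difference of 0.82 ± 0.24 (adjusted p 0.0309) that was 1.25 on slide 1 and 0.39 on slide 2. Its call was lost without any single late Col array or either ein2/ore3 array of replicate 1 (adjusted p 0.0657 to 0.0828).

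After 1 DAT, members already at the low end of the scale had less room for a further fall. Some room was left, as the lowest 25% of genes in Col at 1 DAT lay below 6.87 and 7.09 on the 2 arrays. The lowest value on each of these arrays was 4.64. The part of this limit in the counts below was not tested. From 1 to 3 DAT, 79 members in Col, 63 in ein2/ore3 and 83 in ahk3/ore12 moved by less than 1 on the log2 scale. In ein2/ore3 24 members moved down by 1 or more, against 7 in Col and 3 in ahk3/ore12. For these counts no share of all genes was computed, and they start from 1 DAT values that helped to choose the members. At 1 DAT fewer members lay in the lowest 25% of genes in ein2/ore3 (29) than in Col (43) or ahk3/ore12 (46). At 3 DAT, 85 members in Col, 86 in ein2/ore3 and 88 in ahk3/ore12 were still lower than at 0 DAT by 3 or more in both pairs. From 0 to 3 DAT the median member change was -4.72 in Col, -4.59 in ein2/ore3 and -4.35 in ahk3/ore12.

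Between 2 and 3 DAT, on arrays not used to choose the members, 1 member rose and 0 fell in Col at FDR 0.05 in limma, where 0.405% of all genes were higher and 0.555% lower. In ein2/ore3 no member was called, with 0.0613% of genes higher and 0.0215% lower, and in ahk3/ore12 none either, with 0% and 0% of genes. At an unadjusted p under 0.05 there were 14 members in Col (15.4%, with 11.4% of all genes), 11 in ein2/ore3 (12.1%, with 7.84%) and 17 in ahk3/ore12 (18.7%, with 6.67%). The median member change was 0.06 in Col (all genes 0.00), 0.11 in ein2/ore3 (all genes 0.13) and 0.04 in ahk3/ore12 (all genes -0.01). A p that misses the threshold with 2 arrays per condition does not show that levels stayed the same.

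The member called in Col was AT1G30250, which encodes an unknown protein. In Col it was at 9.66 and 10.25 at 0 DAT, 5.34 and 5.56 at 1 DAT, 7.60 and 8.55 at 2 DAT, then 11.30 and 11.42 at 3 DAT. In ein2/ore3 it went from 6.27 and 7.49 at 1 DAT to 6.96 and 8.66 at 2 DAT and 8.64 and 8.38 at 3 DAT, and in ahk3/ore12 from 5.20 and 5.58 to 5.69 and 7.16 and then 8.67 and 8.15. Both Col arrays at 3 DAT were above every other array of this gene, 0 DAT included, and AT1G30250 was the only member with a mean at 3 DAT above that at 0 DAT in any genotype.

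The rise of AT1G30250 from 2 to 3 DAT in Col was 3.28 ± 0.61 (adjusted p 0.0498). It lay at the edge of the threshold and was not called in 11 of 18 alternatives, among them the omission of each single Col array of 2 or 3 DAT (adjusted p 0.148 to 0.262). Over 2 and 3 DAT the gene was lower than in Col by a difference of -1.56 ± 0.43 in ein2/ore3 (adjusted p 0.0235) and of -2.30 ± 0.43 in ahk3/ore12 (adjusted p 0.00435). The ein2/ore3 call was lost without either Col array of 3 DAT, Col 2 DAT replicate 2 or either ein2/ore3 array of 3 DAT (adjusted p at most 0.0800).

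Late in the dark most members, like most of all genes, were not called between the mutants and Col. Not called were 60 of 91 members and 23165 of 32627 genes for ein2/ore3, and 59 members and 23446 genes for ahk3/ore12. Over 2 and 3 DAT, 22 members were higher in ein2/ore3 than in Col (24.2%, with 15.1% of all genes higher) and 9 lower (9.89%, with 13.9% of all genes). In ahk3/ore12, 24 were higher (26.4%, with 17.1% of all genes) and 8 lower (8.79%, with 11% of all genes). The median difference of the members was 0.08 for ein2/ore3 (all genes -0.14) and 0.10 for ahk3/ore12 (all genes -0.08). Within slide 1 and slide 2 the member medians were 0.15 and 0.00 for ein2/ore3, against 0.09 and 0.17 for ahk3/ore12. Without ahk3/ore12 2 DAT replicate 2 the members called in ahk3/ore12 numbered 21 in place of 32.

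The 108 genes that passed in Col and ahk3/ore12 but failed in at least 1 ein2/ore3 pair are given as a description. Over 2 and 3 DAT, 77 of them were called higher in ein2/ore3 than in Col (71.3%, with 15.1% of all genes). Called lower were 2 (1.85%, with 13.9% of all genes), and the median difference was 1.03. In ahk3/ore12, 55 were called higher (50.9%, with 17.1% of all genes) and 8 lower (7.41%, with 11%), with a median of 0.57. A smaller ein2/ore3 fall at 1 DAT chose these genes, so a higher late ein2/ore3 level is partly built in. Their difference from the members was not tested.

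**Figure D3:**
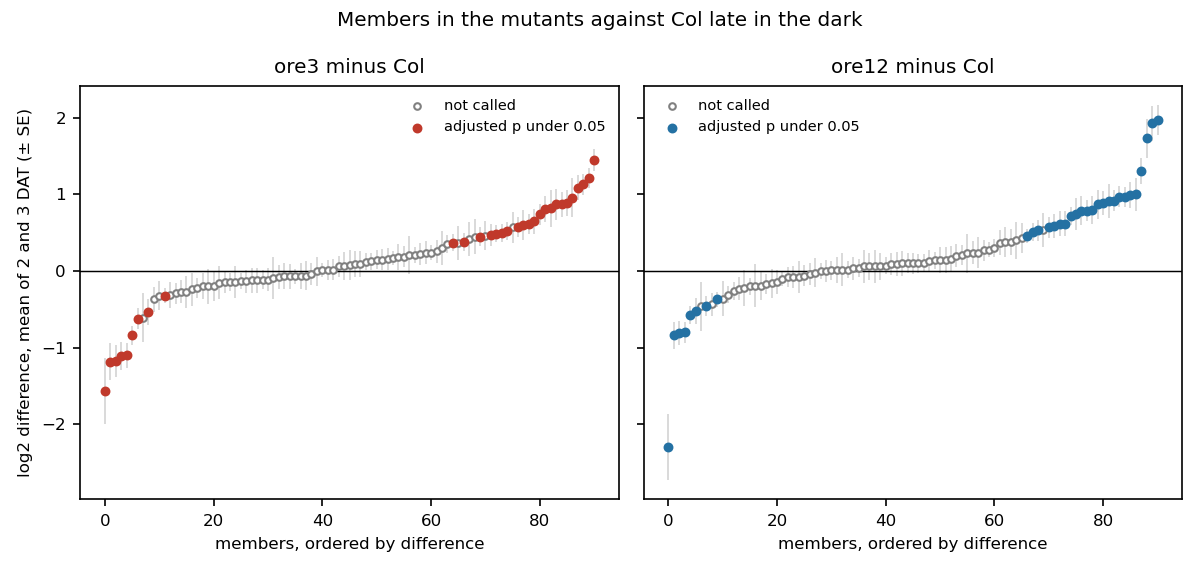
Difference of each mutant from Col over 2 and 3 DAT (log2, ± SE from limma) for the 91 members, ordered by size in each panel; filled points passed an adjusted p of 0.05. Filled points above 0 number 22 in ein2/ore3 (panel ore3) and 24 in ahk3/ore12 (panel ore12), those below 0 number 9 and 8, and the open points are the members not called.

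Both comparisons use the same Col arrays, so the members' values are set side by side. The 3 largest rises in ein2/ore3 were those of AT3G57020, SNZ and AT4G00165, and the 3 largest in ahk3/ore12 those of SAUR31, MIR167d and AT5G38520. AT4G00165, of the lipid-transfer protein family, read 8.36 and 8.25 in Col at 2 DAT, then 9.03 and 8.65 at 3 DAT. Its levels were between 9.13 and 10.32 in ein2/ore3 over both days, and between 8.97 and 9.91 in ahk3/ore12. At each time both arrays of each mutant were above those of Col, by 1.13 ± 0.14 in ein2/ore3 (adjusted p 2.93e-04) and 0.92 ± 0.14 in ahk3/ore12 (adjusted p 0.0014).

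AT3G57020, of the calcium-dependent phosphotriesterase family, read 9.02 and 8.70 in Col at 2 DAT, then 9.72 and 9.46 at 3 DAT. In ein2/ore3 it was at 10.15 and 10.18, then 11.42 and 10.96, and in ahk3/ore12 at 8.72 and 9.08, then 9.41 and 9.45. Only the ein2/ore3 arrays stood apart, above all late arrays of the other genotypes. The difference was 1.45 ± 0.14 from Col (adjusted p 8.5e-05) and 1.51 ± 0.14 from ahk3/ore12 (adjusted p 2.03e-04).

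SNZ (AT2G39250, SCHNARCHZAPFEN), an AP2-type transcription factor that represses flowering, fell in Col from 11.46 and 11.43 to 6.25 and 6.59. In ein2/ore3 it fell from 11.39 and 11.34 to 7.63 and 8.07 and then held between 7.44 and 7.92, whereas the late arrays of Col and ahk3/ore12 lay between 6.23 and 6.68. Its level in ein2/ore3 was higher by 1.22 ± 0.13 than in Col (adjusted p 1.78e-04) and by 1.31 ± 0.13 than in ahk3/ore12 (adjusted p 3.58e-04).

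SAUR31 (AT4G00880), of the auxin-responsive SAUR family, was at 11.66 and 11.58 in Col at 0 DAT and at 7.19 and 6.76 at 1 DAT. Over 2 and 3 DAT it was between 6.30 and 6.95 in Col, between 6.69 and 7.51 in ein2/ore3 and between 8.36 and 9.14 in ahk3/ore12. All 4 late ahk3/ore12 arrays were above the 8 others. The difference from Col was 1.97 ± 0.20 in ahk3/ore12 (adjusted p 2.15e-04), and ein2/ore3 minus ahk3/ore12 was -1.40 ± 0.20 (adjusted p 0.00166). The other SAUR member, AT2G21210 (SAUR6), was called in none of the 6 comparisons.

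MIR167d (AT1G31173) is a precursor gene of miR167, which targets transcripts of auxin response factors; the array reads the locus transcript and not the mature microRNA. In Col it was at 12.33 and 12.00 at 0 DAT, 7.68 and 7.41 at 1 DAT and between 6.51 and 6.79 later. In ahk3/ore12 it was at 12.48 and 11.81 at 0 DAT, 8.79 and 8.51 at 1 DAT and between 8.28 and 8.79 later. The ahk3/ore12 arrays were above those of Col at every dark time point, by 1.93 ± 0.23 over 2 and 3 DAT (adjusted p 4.51e-04). In ein2/ore3 MIR167d was at 7.08 and 8.16 at 2 DAT and 6.54 and 6.59 at 3 DAT, and ein2/ore3 minus ahk3/ore12 was -1.48 ± 0.23 (adjusted p 0.0025).

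AT5G38520 was at 13.47 and 13.35 in Col at 0 DAT. Its late arrays lay between 8.40 and 8.91 in ahk3/ore12, between 7.37 and 8.62 in ein2/ore3, and between 6.90 and 7.02 in Col. Both mutants lay above Col on every late array, by 1.73 ± 0.26 in ahk3/ore12 (adjusted p 0.00161) and 0.96 ± 0.26 in ein2/ore3 (adjusted p 0.0222). The latter call was lost without any single late Col array or ein2/ore3 2 DAT replicate 2 (adjusted p 0.0540 to 0.0754).

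**Figure D4:**
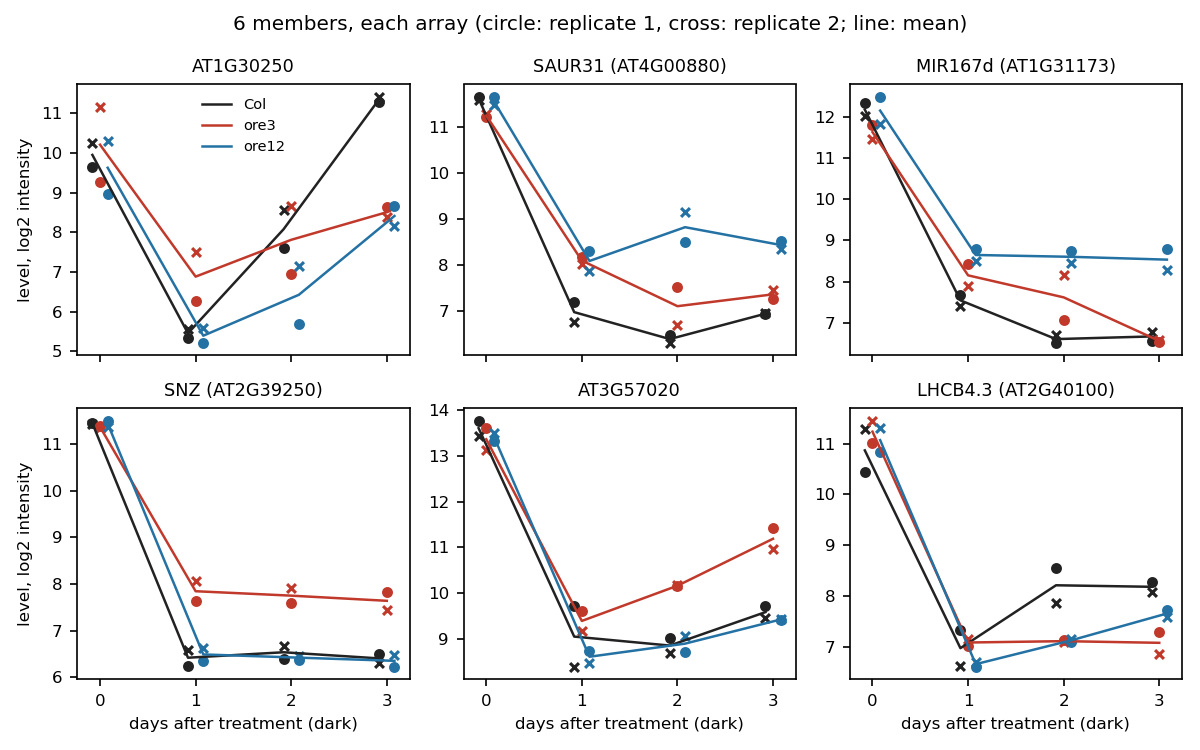
Level (log2 intensity) of 6 members on each array at 0 to 3 DAT, with circles for replicate 1, crosses for replicate 2 and lines for the means, in Col, ein2/ore3 (ore3) and ahk3/ore12 (ore12). AT1G30250 ends above its start in Col (11.30 and 11.42). At 2 and 3 DAT SAUR31 and MIR167d are higher in ahk3/ore12, SNZ and AT3G57020 are higher in ein2/ore3, and LHCB4.3 is lower in both mutants than in Col.

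The largest differences below Col, besides AT1G30250 and LHCB4.3, were those of AT3G55646, AT3G13404 and AT1G20070. AT3G55646 differed from Col at the start as well, with 12.13 and 11.75 in Col and 10.57 and 10.69 in ein2/ore3 at 0 DAT, and its late difference in ein2/ore3 was -1.18 ± 0.24 (adjusted p 0.00502). AT3G13404 climbed in Col from 6.31 and 5.67 at 1 DAT to 7.86 and 8.11 at 3 DAT, and in ahk3/ore12 from 5.66 and 5.70 to 8.66 and 8.11, but in ein2/ore3 from 5.78 and 5.51 to 7.36 and 6.67. Its ein2/ore3 levels over 2 and 3 DAT were lower than those of Col by a difference of -1.17 ± 0.21 (adjusted p 0.00298).

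AT1G20070, an unknown protein annotated to the chloroplast, reached 9.30 and 9.36 in Col at 3 DAT, against 8.49 and 8.09 in ahk3/ore12 and 8.13 and 7.54 in ein2/ore3. The late differences from Col were -1.11 ± 0.18 in ein2/ore3 (adjusted p 0.00142) and -0.84 ± 0.18 in ahk3/ore12 (adjusted p 0.00817).

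Between the mutants, 8 members were higher in ein2/ore3 than in ahk3/ore12 over 2 and 3 DAT (8.79%, with 6.77% of all genes) and 14 lower (15.4%, with 10.5% of all genes). AT1G57590 was above Col in ein2/ore3, by 0.62 ± 0.13 (adjusted p 0.00719), and below it in ahk3/ore12, by a difference of -0.46 ± 0.13 (adjusted p 0.0322). Its late arrays lay between 7.03 and 7.77 in ein2/ore3, 6.66 and 6.80 in Col and 6.0 and 6.45 in ahk3/ore12, without overlap, and ein2/ore3 exceeded ahk3/ore12 by 1.07 ± 0.13 (adjusted p 8.9e-04). The ahk3/ore12 call against Col was lost under quantile normalization (adjusted p 0.0809) and without any single late Col array or any single ahk3/ore12 array other than 3 DAT replicate 2 (adjusted p 0.0545 to 0.113).

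XTH31 (AT3G44990), a xyloglucan-modifying enzyme of the cell wall, read 5.97 and 6.34 in ahk3/ore12 at 2 DAT, then 5.29 and 5.49 at 3 DAT. In Col it lay between 5.04 and 5.32 and in ein2/ore3 between 4.70 and 5.32 at these times, near the low end of the scale, so that the lower ahk3/ore12 array of 3 DAT overlapped both. It was higher in ahk3/ore12 than in Col by 0.62 ± 0.16 (adjusted p 0.0197), a call that was lost without any single replicate 2 array of Col or ahk3/ore12 at 2 or 3 DAT (adjusted p at most 0.0805).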

How the data were processed

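Total RNA of 24 leaf samples was hybridized to single-colour NimbleGen arrays designed on TAIR9. The authors scanned the arrays and made the deposited intensity values per transcript variant by RMA in NimbleScan, that is, with background correction, quantile normalization and a median polish of up to 4 probes. A second deposited table, of log2 values for each gene (variants summed by the authors), chose the members. For all other values the variant intensities were summed here and log2-transformed, which moved no value by more than 0.00514. Names came from RefSeq (TAIR10.1), which matched all 91 members. The members, gene lists and tests were chosen with earlier results of these data known.

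The 12 late arrays entered a limma model (version 3.58.1, R 4.3.3) of 6 condition means. Benjamini-Hochberg adjustment ran over 32627 genes, with calls at FDR 0.05, and p-values measure the spread between 2 biological replicates. Genes named are the 12 deepest falls, list members, the 3 largest called rises and falls of each comparison and the 3 genes at each side of the limit. The other member genes named for a role, among them PPT2 with its values, were added after values were seen. The 12 arrays of each replicate number shared 1 slide, which holds all conditions. Deviations of same-numbered late arrays from condition means correlated across genes by -0.159 to 0.556 over 15 pairs of conditions (11 over 0.1), and slide was fitted as a block. The fit was tested on data simulated with independent noise, without the correlation of arrays that share a slide. For ein2/ore3 against Col it called 65 of 100 changes of 1 and 91 of 100 changes of 2 on the log2 scale. There were 9 false calls. Per the study's methods, harvest was 4 h after subjective dawn. The number of leaves per array is not given in the sources used here. Alternatives were other normalizations, arrays, thresholds and filters, and the omission of each late array.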

Additional observations from a re-analysis of the deposited data

Results flagged for a closer look

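In 4 members described above the change from 2 to 3 DAT had opposite signs in Col and in a mutant on both slides. MIR167d changed by 0.04 and 0.09 in Col and by -0.54 and -1.57 in ein2/ore3, a difference of -1.12 ± 0.45. PPT2 changed by 0.02 and 0.15 in Col and by -0.80 and -0.06 in ein2/ore3, a difference of -0.51 ± 0.28. RBCS1B changed by -0.94 and -0.43 in Col and by 0.07 and 0.01 in ahk3/ore12, a difference of 0.72 ± 0.29. TT4 changed by 0.03 and 0.04 in Col and by -0.28 and -0.42 in ahk3/ore12, a difference of -0.39 ± 0.48. None passed limma's interaction test after adjustment over all genes (adjusted p 0.659 for MIR167d, 0.736 for PPT2, and 1 for RBCS1B and TT4). Among all 91 members, such opposite signs occurred for 5 in each mutant (5.49%, against 10.9% of all genes in ahk3/ore12 and 12.0% in ein2/ore3). The interaction called 0 members in either, and over all genes 1 in ein2/ore3 but 0 for ahk3/ore12. At an unadjusted p under 0.05 there were 8 members in ein2/ore3 (8.79%, with 7.23% of all genes) and 6 in ahk3/ore12 (6.59%, with 4.04%).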

How the results depend on the processing

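The number of members was 168 at a limit of -2.5 and 46 at -3.5, and between 82 and 110 under the other 6 ways of applying the rule. With FDR under 0.01, the members called against Col were 17 in ein2/ore3 and 19 in ahk3/ore12, 10 between the mutants, and 0 for 3 against 2 DAT in Col. With all 24 arrays in the fit, 3 members were called for 3 against 2 DAT in Col and 1 in ein2/ore3, and quantile normalization left 0 in Col. The slide as a replicate block gave 31, 33 and 23 members called for ein2/ore3, ahk3/ore12 and their difference, in place of 31, 32 and 22. Omitting 1 array, an arm of 1 then being assumed to vary like the others, gave 21 to 36 for ein2/ore3 against Col, 21 to 34 for ahk3/ore12 against Col, 15 to 25 between the mutants, 0 to 2 for Col from 2 to 3 DAT, 0 to 10 for ein2/ore3 and 0 for ahk3/ore12. The 10 arose without ein2/ore3 2 DAT replicate 1, which leaves the array that is low as a whole alone in its condition, and the interaction of ein2/ore3 then called 3 members (0 to 3 over all omissions). The interaction's alternatives were chosen after seeing the data. The Col number was 2 without either ein2/ore3 array of 2 DAT and 0 without any other single array.

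The median member difference of ahk3/ore12 from Col was 0.17 within slide 2 and 0.20 after quantile normalization. The median change from 2 to 3 DAT in Col was 0.09 within slide 1, 0.03 after quantile normalization and 0.10 after median centring. In ein2/ore3 it was 0.00 within slide 1, 0.02 after median centring and reversed to -0.06 after quantile normalization. Of 736 values of named members under alternatives, 647 remained called in the same direction, 89 were no longer called and 0 changed sign. Besides those given above, calls between the mutants were lost under some alternatives for CA1, PCB2, AT3G55646 and XTH31 (highest adjusted p 0.161, 0.163, 0.0926 and 0.0677). Signal near the low end of the scale limits the size of the falls. Promoter motifs were not run, as no promoter sequences were used here.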
